A study of Mus musculus with 16 samples.

Results

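The 10 genes described here are in wide use as markers of activated, cancer-associated fibroblasts (CAFs) and were followed through cocultures of pancreatic stellate cells and sympathetic ganglia. The genes were the contractile-apparatus genes Acta2, Tagln, Myl9 and Cnn1, the platelet-derived growth factor (PDGF) receptor genes Pdgfra and Pdgfrb, the cell surface genes Fap, Pdpn and Thy1, and S100a4. They were chosen by name, and all 10 were found among the 21684 protein-coding genes of each of the 2 tables of normalized counts, which list 56941 genes. A normalized count is the number of reads on a gene divided by the size factor of its library.

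Bulk RNA-seq was available for 16 libraries. Stellate cells of the immortalized murine line mPSC1, which is a single line, were sequenced after culture alone (PSC, n = 3) or with explants of the superior cervical ganglion, a sympathetic ganglion, from neonatal C57BL/6J mice (PSC+SCG, n = 3). Explants were sequenced after culture alone (SCG, n = 3), with control fibroblasts of the line NIH 3T3, called MEF here (SCG+MEF, n = 3), or with mPSC1 cells (SCG+PSC, n = 4). In the cocultures 8 to 13 explants shared a well for about 70 h with 10000 cells on an insert, so that soluble factors passed between the cell types but the cells did not touch. No agent was added in any group. Each explant library pools several explants, and the number of ganglia and mice behind it is not stated. The pairing of libraries rests on replicate numbers, since no label says which were cultured on the same date or came from the same litter. The p-values therefore measure the spread between these libraries, which may be technical in part.

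Stellate cells are mesenchymal cells of the pancreas that store vitamin A at rest and, once activated, take on the shape, the contractile fibers and the matrix output of myofibroblasts. In pancreatic tumors they are a source of CAFs, among which a contractile, matrix-rich state (myCAF) is set apart from a state that secretes inflammatory cytokines (iCAF). The contractile genes mark the former, Pdgfra and Pdgfrb carry the growth signal of PDGF ligands, and Fap, Pdpn, Thy1 and S100a4 are used to find fibroblasts in tissue, although neurons carry Thy1, mural cells of vessels carry Acta2 and Pdgfrb, and macrophages can carry S100a4.

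Recovered reads on genes ranged from 31900689 to 41632381 in the 14 libraries for which they could be counted. Summed fibroblast markers (Col1a1, Col1a2, Col3a1, Dcn, Lum and Dpt) lay between 373101 and 647024 normalized counts in the stellate cell libraries, whereas the 8 sympathetic neuron markers summed to at most 2152 there, with Tubb3 as the single marker at 10 or more in all libraries of a group. Lrat, a marker of resting stellate cells, was at 0 in all 6. In the ganglion libraries, the 8 neuron markers summed to 89758 to 191652, the 6 glial markers to between 44593 and 57858 and the fibroblast markers to 183131 to 379536. The explants thus held RNA of several cell types, and in such bulk samples fewer cells of a type and less RNA per cell cannot be told apart.

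Genes of the contractile apparatus are textbook targets of serum response factor, which binds a DNA element named the CArG box. The stretches below are shown because Acta2 and Myl9 carry such letters and, as described further on, the contractile genes moved together across libraries. Promoter windows of 250 bases before the RefSeq start (RefSeq table of GRCm38.p6, placed on GRCm39 by exact match) were present for 6 of the 10 genes, namely Acta2, Cnn1, Myl9, Pdgfra, Pdpn and S100a4. Fap, Tagln, Pdgfrb and Thy1 had no window. Both strands were searched for the CArG box and for versions of it with 1 base of its core changed. Capitals mark the match and the flanks are in lower case, 5′ to 3′ on the strand of the gene.
Myl9, CArG box, chr2:156617213-156617242, plus strand: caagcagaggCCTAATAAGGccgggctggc
Myl9, CArG box with 1 core base off, chr2:156617275-156617304, plus strand: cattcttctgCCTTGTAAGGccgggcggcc
Acta2, CArG box with 1 core base off, chr19:34232838-34232867, minus strand: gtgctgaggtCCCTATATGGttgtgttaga
Acta2, CArG box with 1 core base off, chr19:34232788-34232817, minus strand: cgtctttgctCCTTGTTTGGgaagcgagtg
The Myl9 matches began 161 and 99 bases before the RefSeq start, and those of Acta2 began 84 and 34 bases before it. GENCODE M39 places all 4 stretches inside a 5′ untranslated exon of a longer transcript. Of 32851 RefSeq windows of this length, 1.47% held a CArG box, 7.24% held a version with 1 core base off and 0.67% held at least 2 matches of either kind. Cnn1, the remaining contractile gene with a window, held no match within it. The letters are a description and say nothing of whether a factor was bound.

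Acta2 encodes smooth muscle alpha-actin, the filament protein by which myofibroblasts are most often recognized. The gene lies on GRCm39 at chr19:34217737-34232990 on the minus strand, and 9.33% of its exon bases are shared with Stambpl1 on the opposite strand. In PSC it was counted at 33709, 25163 and 36041 in replicates 1, 2 and 3, and in PSC+SCG at 31156, 20889 and 61518. The PSC+SCG libraries lay on both sides of the PSC libraries, with replicate 3 alone above them all. Its log2 fold change of PSC+SCG against PSC was 0.13 ± 0.35 (SE; 95% interval −0.68 to 0.94; adjusted p = 0.9999, limma with Benjamini-Hochberg adjustment over all genes tested). With the replicate number as a block the interval narrowed to −0.17 to 0.43 (adjusted p = 0.972).

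Tagln, Myl9 and Cnn1 ordered the libraries in a similar way. Tagln encodes transgelin, an actin-binding protein of smooth muscle (chr9:45840909-45847404, minus strand), and 66.7% of its exon bases overlap Gm48529 or Pcsk7 on the opposite strand. It was counted at 7684, 5786 and 8425 in PSC and at 6227, 4610.2 and 13848 in PSC+SCG. Myl9, the regulatory light chain of nonmuscle and smooth muscle myosin (chr2:156617084-156623579, plus strand), was counted at 6506.5, 4676 and 6268 in PSC and at 5304, 4313 and 10806 in PSC+SCG. Cnn1 encodes calponin, which binds actin and restrains myosin (chr9:22010512-22020926, plus strand; 35.1% of exon bases shared with Elof1 on the opposite strand). Its values were 1499, 1018 and 1667 in PSC and 1384, 871 and 3152 in PSC+SCG. Replicates 1 and 2 of PSC+SCG were below their same-numbered PSC libraries in each of the 4 contractile genes, and replicate 3 was above its counterpart in each.

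The fold changes of these genes were accordingly small beside their errors. The log2 fold change was 0.03 ± 0.36 (SE) for Tagln, 0.12 ± 0.31 for Myl9 and 0.19 ± 0.41 for Cnn1, with an adjusted p of 0.9999 from limma for each. Between same-numbered libraries the log2 difference of Acta2 was −0.11, −0.27 and 0.77, and that of Cnn1 was −0.12, −0.22 and 0.92. The direction rested on single libraries. Without PSC+SCG replicate 3 the log2 fold change was −0.29 for Acta2, −0.43 for Tagln, −0.27 for Myl9 and −0.31 for Cnn1, and without PSC replicate 2 the sign of all 4 turned as well.

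**Figure D1:**
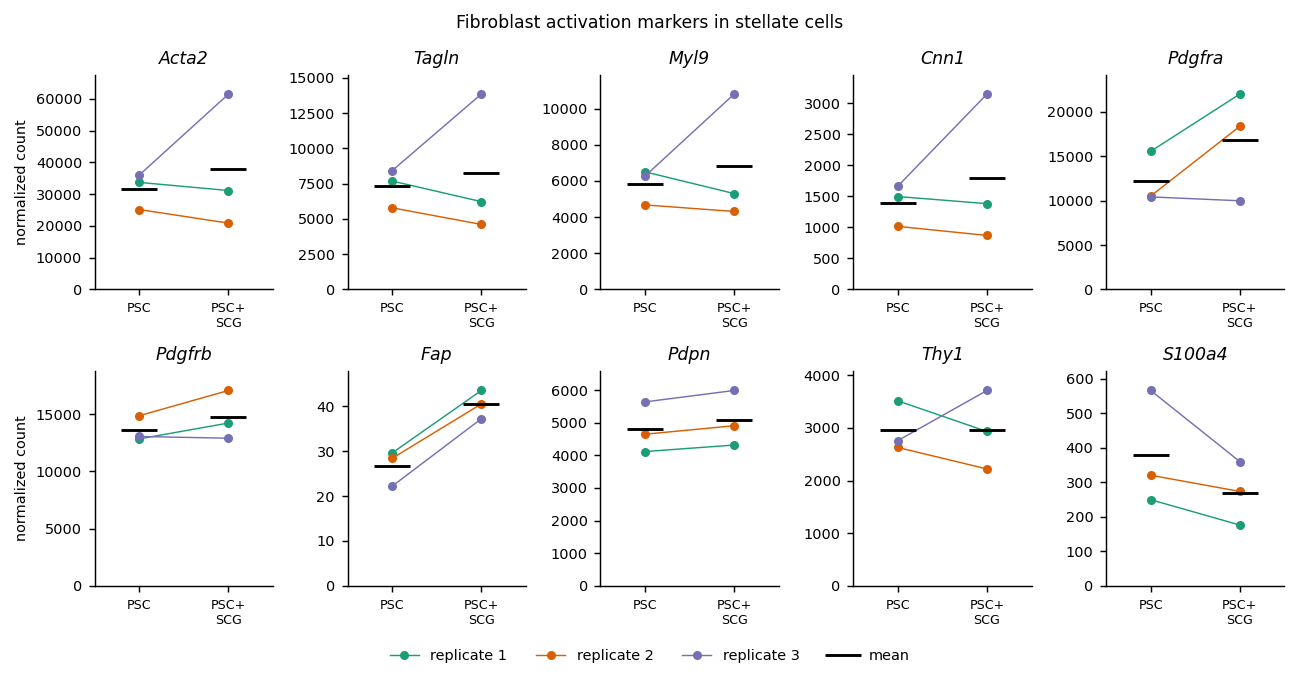
Normalized counts (y axis, from 0) of the 10 markers in PSC and PSC+SCG, 1 panel per gene. Points are libraries, lines join libraries with the same replicate number and black bars are group means (n = 3). Acta2, Tagln, Myl9 and Cnn1 share 1 pattern with replicate 3 of PSC+SCG on top, and only in Fap do the groups not overlap.

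The PDGF receptors differed from the contractile genes. Pdgfra (chr5:75311994-75358876, plus strand) binds all PDGF dimers but PDGF-DD and is in wide use to define fibroblasts. It was counted at 15539, 10503 and 10413 in PSC and at 21976, 18355 and 9974 in PSC+SCG. Replicates 1 and 2 of PSC+SCG were above every PSC library, and replicate 3 was below them all. Its log2 fold change was 0.41 ± 0.29 (SE; 95% interval −0.25 to 1.08; adjusted p = 0.9999, limma). With the replicate block the interval was 0.15 to 0.67, which lies above 0, and the unadjusted p was 0.00318, but the adjusted p of 0.173 missed the threshold. When the libraries numbered 3 were also put in blocks of their own, Pdgfra had a log2 fold change of 0.65 and an adjusted p of 8.1e-05 and passed. That fit draws the difference from replicates 1 and 2 alone, so its p-value rests largely on spread borrowed from other genes. It sets aside the pair numbered 3, in which Pdgfra was lower in coculture (log2 difference −0.06). No label sets this pair apart, and its libraries deviated together across genes (r = 0.82). Leaving out PSC+SCG replicate 3 without a block gave 0.75 (adjusted p = 0.448).

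Pdgfrb, the receptor for PDGF-BB and PDGF-DD on stellate and mural cells, lies on chromosome 18 from 61178212 to 61218133. It was counted at 12830, 14854 and 13039.9 in PSC and at 14213, 17054 and 12886.5 in PSC+SCG. The groups overlapped, and the log2 fold change was 0.11 ± 0.15 (SE; 95% interval −0.22 to 0.44; adjusted p = 0.9999, limma). Within the replicate block the interval of −0.10 to 0.32 leaves out a change of the 0.5 that the threshold requires.

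Fap encodes fibroblast activation protein, a membrane serine protease used as a target for imaging CAFs (chr2:62331286-62404419, minus strand). It was the lowest of the 10 markers in the stellate cells, at 29.6, 28.4 and 22.2 in PSC and at 43.5, 40.5 and 37.2 in PSC+SCG. It was also the only marker whose groups did not overlap, as was true of 4.37% of the 14541 protein-coding genes tested. Its log2 fold change was 0.59 ± 0.32 (SE; 95% interval −0.15 to 1.32; adjusted p = 0.9999, limma), and 0.694 was the adjusted p with the replicate block. The values rest on few reads. Where the reads could be counted, there were 35, 25 and 23 in PSC and 41 and 35 in replicates 2 and 3 of PSC+SCG. The exact 95% Poisson interval was 14.6 to 34.5 for 23 reads and 29.4 to 55.6 for 41 reads. Such intervals cover counting error only, and their overlap is not a test of a difference. Summed markers of ganglion cells overlapped between the groups. The neuron markers summed to 1212 to 1896 in PSC and 1734 to 2152.5 in PSC+SCG, and the glial markers to 94.4 to 139.5 and 130.3 to 155.3, with Sox10 at 0 in PSC. The neuron sum was almost wholly Tubb3, a tubulin gene, with a mean of 1507 in PSC and 1997 in PSC+SCG. Th and Snap25 were at 0 in PSC+SCG, and the other neuron markers had means of at most 3.7. Pearson's r of Fap over the 6 libraries was 0.90 with the neuron sum, and so in effect with Tubb3, and 0.81 with the glial sum, and their part in the Fap values was not tested. The study placed Fap in a leading gene list drawn from these libraries, so its direction is not independent evidence.

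Pdpn encodes podoplanin, a mucin-like glycoprotein that links the membrane to the actin cortex through ezrin and moesin (chr4:142990871-143026143, minus strand). Its values were 4117, 4649 and 5639 in PSC and 4317, 4908 and 5989 in PSC+SCG. The coculture library was the higher of each same-numbered pair, by 0.07, 0.08 and 0.09 on the log2 scale, while the libraries of 1 group differed by 1.37-fold in PSC and 1.39-fold in PSC+SCG. The log2 fold change of 0.08 had a 95% interval of −0.30 to 0.46 without a block and −0.12 to 0.28 with it (adjusted p = 0.9999 and 0.987, limma).

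Thy1, a glycolipid-anchored surface protein of fibroblasts and neurons (chr9:43954332-43959880, plus strand), was counted at 3513, 2628 and 2759 in PSC and at 2932, 2220.2 and 3710.4 in PSC+SCG. The groups had nearly the same mean, 2967 ± 478 (SD, n = 3) and 2954 ± 745 (SD, n = 3), and their log2 fold change was −0.03 ± 0.20 (SE; 95% interval −0.48 to 0.43; adjusted p = 0.9999, limma).

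S100a4, also called fibroblast-specific protein, encodes a calcium-binding protein that acts on nonmuscle myosin (chr3:90511074-90513354, plus strand). As 33.3% of its exon bases are shared with Gm42674 on the same strand, its count is uncertain. It was counted at 249, 320.1 and 565 in PSC and at 176, 273 and 359.6 in PSC+SCG, and each coculture library was below its same-numbered PSC library although the groups overlapped. A log2 fold change of −0.46 ± 0.35 was estimated (SE; 95% interval −1.26 to 0.34; adjusted p = 0.9999, limma). With the replicate block the interval was −0.78 to −0.14 and the unadjusted p was 0.00705, but the adjusted p was 0.252.

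In this comparison none of the 10 markers passed the threshold (adjusted p no higher than 0.05, with the log2 fold change 0.5 or more in either direction) by limma without a block, and neither did any other gene (0.0% of 14541 protein-coding genes). At an unadjusted p below 0.05 there were 205 genes and none of the markers. With the replicate block there were 886 of the 14541 genes, Pdgfra and S100a4 among them. With the replicate block 76 genes passed, 65 higher and 11 lower in PSC+SCG (0.523%), and again no marker, and with the libraries numbered 3 apart 163 passed (1.12%), of which Pdgfra was 1. The median log2 fold change was 0.12 over the markers and 0.01 over all protein-coding genes tested.

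**Figure D2:**
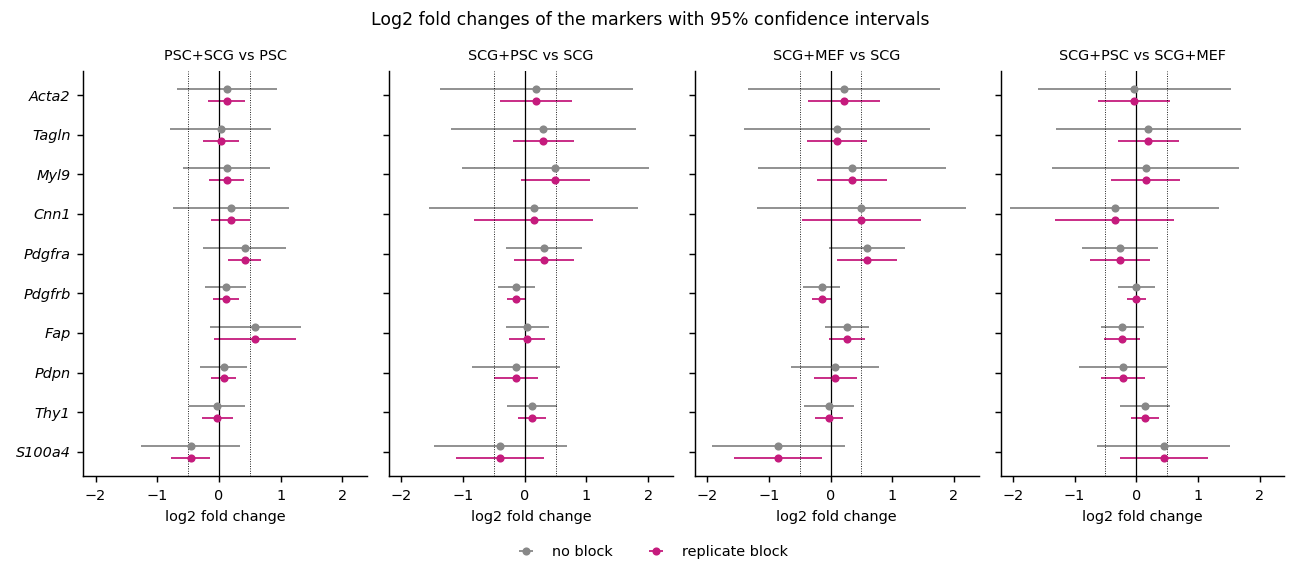
Log2 fold changes (x axis) of the 10 markers in the 4 comparisons, with 95% confidence intervals from limma without a block (grey) and with the replicate number as a block (magenta). Dotted lines mark a log2 fold change of 0.5 in size. The block narrows most intervals, and with it only Pdgfra and S100a4 have intervals that leave out 0, in PSC+SCG vs PSC and in SCG+MEF vs SCG.

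Levels of different genes were compared only per kilobase of exon (GENCODE M39 exons merged over all transcripts of a gene). In PSC, Acta2 led with 9804 ± 1775 normalized counts per kilobase (SD, n = 3), the 64th highest of 15828 protein-coding genes. Tagln followed at 3571 ± 666, Myl9 at 2537 ± 434 and Pdgfrb at 1677 ± 138, then Pdgfra (987 ± 238), Pdpn (969 ± 156), Thy1 (662 ± 107), Cnn1 (509.9 ± 123.1) and S100a4 (417 ± 183). Tagln and Myl9, Pdgfra and Pdpn, Thy1 and Cnn1, and Cnn1 and S100a4 differed by less than the sum of their SDs. Fap, at 4.55 ± 0.68, was 12247th of 15828. The order of the 10 markers in PSC+SCG was the same.

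The ganglion explants held the markers in another order. In SCG, Acta2 (4676 ± 3431 normalized counts per kilobase, SD, n = 3) and Tagln (4542 ± 3236) again led, followed by Pdgfrb at 3024 ± 349, and the 3 could not be ranked against each other within their SDs. Thy1 came next at 1138 ± 223, before Myl9 at 896 ± 665 and Fap at 335 ± 18.2, and these neighbours too differed by less than the sum of their SDs. Fap was 3820th of 16594 genes in SCG, far above its place in PSC, whereas Pdgfra was 8511th in SCG against 1337th in PSC and Pdpn 9178th against 1371st. Tables normalized apart were not tested against each other, and these places are a description within each table.

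In the ganglia cultured alone the contractile genes varied more than any other marker, and Acta2 and Tagln did so in the same order of replicate numbers in every group. Acta2 was counted at 3179, 25068 and 17019.7 in SCG, at 6346, 20857 and 16127 in SCG+MEF and at 8348.5, 20495, 11675 and 10459.5 in SCG+PSC replicates 1 to 4. Replicate 1 was the lowest and replicate 2 the highest of the replicates 1 to 3 in all 3 groups, and within SCG they differed 7.89-fold. Tagln ranked the libraries in the same way, at 2326, 15491 and 10036 in SCG, 3682, 14853.5 and 8246 in SCG+MEF and 5867, 13901, 8326 and 7386 in SCG+PSC.

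Myl9 and Cnn1 spread as widely. Myl9 was counted at 474, 3514 and 2176 in SCG, at 956, 3660.4 and 2132 in SCG+MEF and at 1532, 3272, 2040.4 and 1812.5 in SCG+PSC. Cnn1 was counted at 29.4, 303.5 and 241 in SCG, at 86.2, 287 and 250.4 in SCG+MEF and at 134, 166, 133.5 and 121 in SCG+PSC, a 10.3-fold range in SCG and a 1.37-fold range in SCG+PSC. In each contractile gene the SCG+PSC libraries lay inside the range of the SCG libraries.

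Coculture did not move the contractile genes past their spread. For SCG+PSC against SCG the log2 fold change was 0.19 ± 0.70 (SE) for Acta2, 0.30 ± 0.68 for Tagln, 0.50 ± 0.68 for Myl9 and 0.15 ± 0.76 for Cnn1, each with an adjusted p of 1 from limma. The interval of Acta2 ran from −1.38 to 1.75, and from −0.40 to 0.77 with the replicate block, in which its adjusted p was 0.874. Within same-numbered pairs the log2 difference of Myl9 was 1.69, −0.10 and −0.09, and that of Cnn1 was 2.16, −0.86 and −0.85. The sign of all 4 genes rested on SCG replicate 1. Without it the log2 fold change was −0.71 for Acta2, −0.50 for Tagln, −0.35 for Myl9 and −0.90 for Cnn1. Without SCG+PSC replicate 2 the sign of Acta2 and Tagln turned as well.

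Against SCG, the explants cultured with control fibroblasts gave similar values. The log2 fold change of SCG+MEF was 0.22 ± 0.70 (SE) for Acta2, 0.11 ± 0.68 for Tagln, 0.35 ± 0.68 for Myl9 and 0.50 ± 0.76 for Cnn1 (adjusted p of 1, limma). This comparison shares the SCG libraries with the preceding one, so that the low SCG replicate 1 enters both. Set directly against SCG+MEF, SCG+PSC differed by −0.03 for Acta2, 0.20 for Tagln, 0.15 for Myl9 and −0.35 for Cnn1, and the block intervals were −0.61 to 0.55, −0.29 to 0.69, −0.41 to 0.71 and −1.31 to 0.61 (adjusted p of 0.977, 0.779, 0.862 and 0.803, limma with the replicate block).

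**Figure D3:**
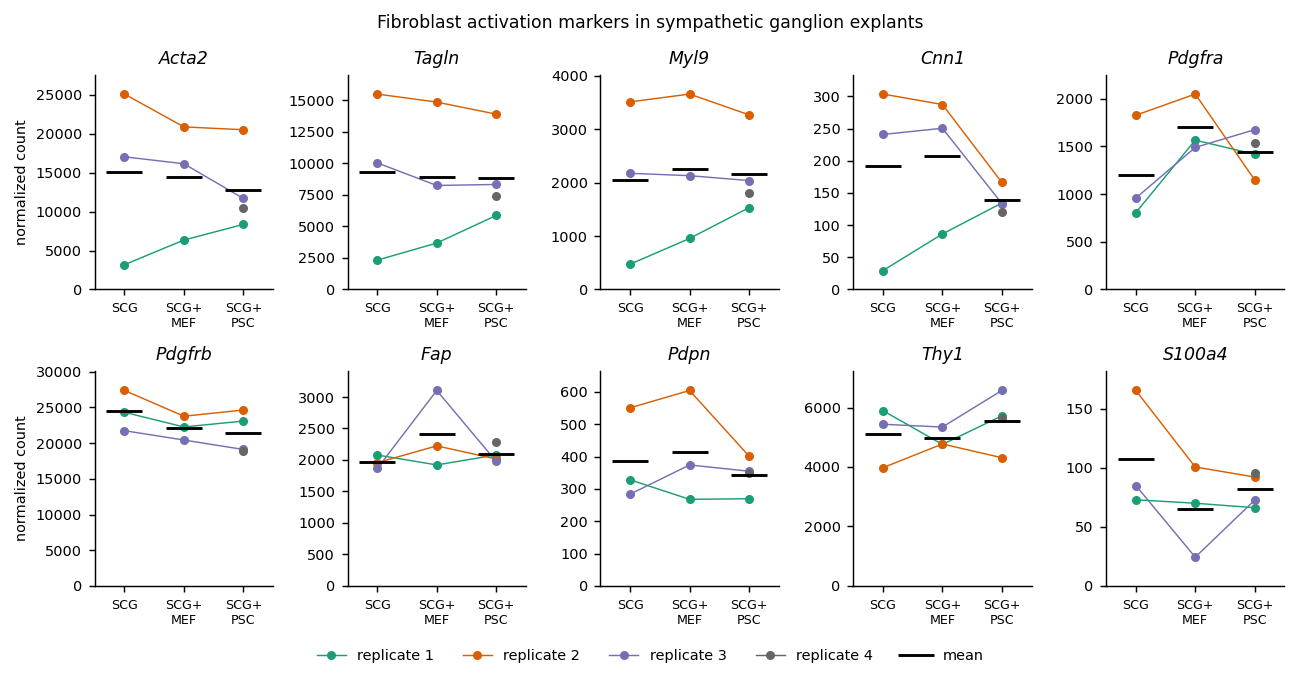
Normalized counts (y axis, from 0) of the 10 markers in SCG, SCG+MEF and SCG+PSC, 1 panel per gene. Points are libraries, lines join replicates 1 to 3 across groups, replicate 4 of SCG+PSC has no partner and black bars are group means over all libraries shown. In Acta2, Tagln and Myl9 replicate 1 is lowest and replicate 2 highest in all 3 groups.

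A decomposition of the log2 values into condition, replicate number and rest put figures on this pattern. In the ganglion libraries (replicates 1 to 3), replicate number took 83.5% of the sum of squares of Acta2, 86.5% of Tagln, 80.3% of Myl9 and 61.8% of Cnn1, and condition took 1.096%, 2.005%, 5.26% and 4.41%. In the stellate cell libraries the replicate number took 68.1% to 78.4% of these 4 genes, and condition at most 2.66%. Replicate number has more levels than condition there, which by itself raises its share. The pattern was not particular to the markers. The median protein-coding gene with a mean of at least 20 had 59.7% by replicate number and 14.1% by condition in the ganglion libraries and 71.2% and 4.91% in the stellate cell libraries. Replicate number took more than condition in 90.1% of protein-coding genes with such a mean in the stellate cell libraries and in 80.8% in the ganglion libraries. Among the markers, Fap alone had the larger share by condition in the stellate cells (81.4%). In the ganglia Fap and Pdgfra had it, at 31.9% and 33.1% by condition against 10.5% and 17.7% by replicate number.

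**Figure D4:**
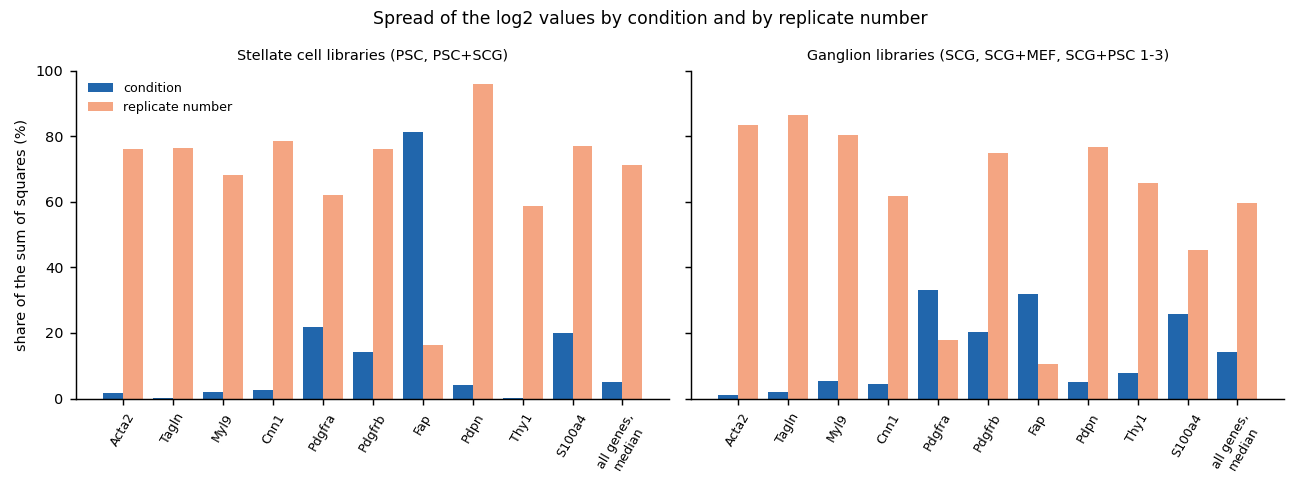
Share of the sum of squares of log2(normalized count + 1) (y axis, %) taken by condition (blue) and by replicate number (orange) for the 10 markers, with the medians over all protein-coding genes with a mean of at least 20 as the last pair of bars. The rest of each sum of squares is not drawn. Replicate number has the taller bar in all but Fap in the stellate cells, and in all but Pdgfra and Fap in the ganglia.

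The contractile genes were also tightly correlated with one another. Over the 10 ganglion libraries Pearson's r of the log2 values was 0.91 to 0.99 for the 6 pairs among them, and 0.984 to 0.999 over the 6 stellate cell libraries. These are descriptions across libraries that share groups and replicate numbers. Of 12131 protein-coding genes with a mean of at least 100, those most like Acta2 across the 10 ganglion libraries were Actg2 (r = 0.99), which encodes smooth muscle gamma-actin, Tpm2 (0.99), a tropomyosin, and Steap2 (0.99). For Tagln they were Myl9, Tpm2 and Actg2, for Myl9 they were Tagln, Actg2 and Tpm2, and for Cnn1 they were Cgnl1, Lmod1 and Acta2 (r = 0.95 for each). The closest gene to Fap was Smad4 (0.95), to Pdgfra Iqcc (0.89), to Pdpn Rab23 (0.95) and to S100a4 Unc119b (0.92).

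The summed fibroblast markers moved with the contractile genes in the ganglion libraries, and this sum was almost wholly Col1a1, Col1a2 and Col3a1. Their means in SCG were 89425, 106391 and 65211, against 2804 for Dcn, 1064 for Lum and 4.2 for Dpt. Across the SCG libraries Dcn ran only from 2544 to 3012 and Lum from 856 to 1477.5, where Acta2 ran from 3179 to 25068. The 6 fibroblast markers summed to 183131, 361634 and 249932 in SCG, to 262564, 379536 and 289119 in SCG+MEF and to 283373, 364783, 309322 and 261399 in SCG+PSC, lowest in SCG replicate 1, where Acta2 was lowest. Pearson's r with the 4 contractile genes was 0.79 to 0.91 over the 10 libraries. The summed mural cell markers (Rgs5, Kcnj8, Abcc9, Notch3, Myh11 and Cspg4; all 6 at 10 or more in every ganglion library) were instead highest in SCG replicate 1, at 41133, and lay between 15474.5 and 35424 in the others (r = −0.52 to −0.39). The neuron markers were lowest, at 89758, in SCG replicate 2, where Acta2 was highest (r = −0.52 to −0.31). In the stellate cell libraries the fibroblast sum ran the other way, lowest at 373101 in PSC+SCG replicate 3, where the contractile genes were highest (r = −0.88 to −0.83 over 6 libraries). The part of cell makeup in the spread of the contractile genes was not tested.

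**Figure D5:**
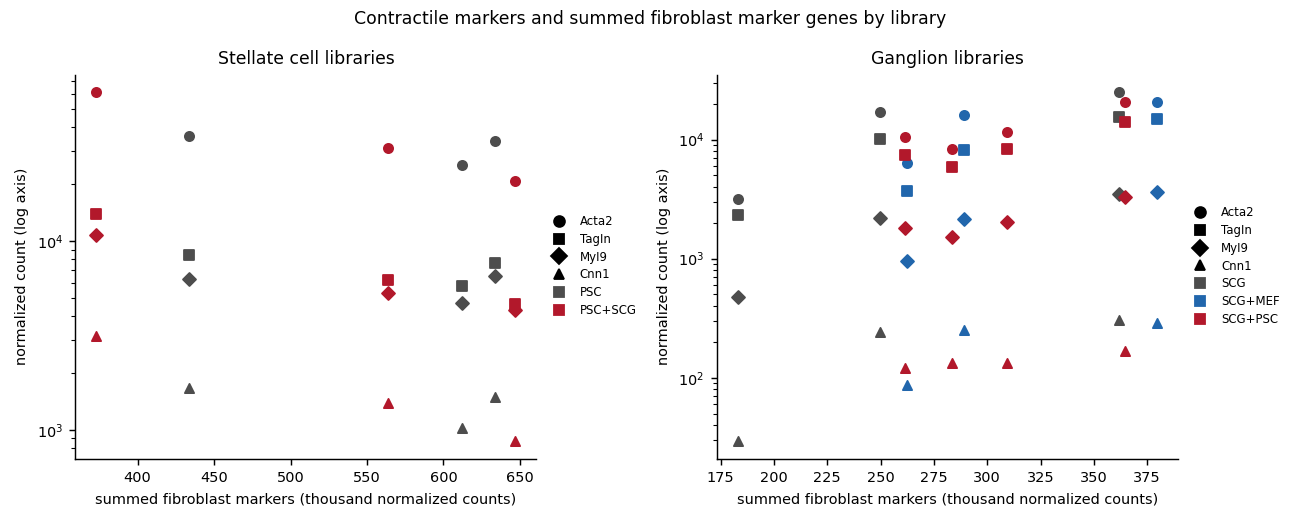
Normalized counts of Acta2, Tagln, Myl9 and Cnn1 (y axis, log scale) against the summed normalized counts of 6 fibroblast marker genes (x axis, scaled as labelled) in each stellate cell library (left, n = 6) and ganglion library (right, n = 10), colored by group. The genes are lower where the sum is higher in the stellate cell libraries and higher where it is higher in the ganglion libraries, and the groups are interspersed.

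The PDGF receptors of the explants did not pass in any comparison. Pdgfra was counted at 805, 1825.5 and 958 in SCG, at 1564, 2047 and 1488 in SCG+MEF and at 1417, 1147.5, 1674 and 1530.1 in SCG+PSC. SCG replicate 2 lay among the coculture libraries and the other SCG libraries lay below all of them. Its log2 fold change was 0.59 ± 0.28 (SE) for SCG+MEF against SCG (95% interval −0.03 to 1.20; adjusted p = 1, limma) and 0.32 ± 0.28 for SCG+PSC against SCG (−0.30 to 0.93; adjusted p = 1). With the replicate block the former had an interval of 0.10 to 1.07 and an unadjusted p of 0.0221, with an adjusted p of 0.556. Pdgfra was higher in all 3 same-numbered pairs with MEF and in 2 of the 3 with PSC, and the direct difference between SCG+PSC and SCG+MEF was −0.27 (−0.88 to 0.35; adjusted p = 1). Over the 10 libraries Pearson's r of Pdgfra was 0.73 with the fibroblast sum and −0.87 with the mural sum, and their part in its values was not tested.

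Pdgfrb was counted at 24324, 27381 and 21744 in SCG, at 22270.3, 23774 and 20437 in SCG+MEF and at 23094.5, 24640.5, 19116 and 18845 in SCG+PSC. Each coculture library was below its same-numbered SCG library, by 0.09 to 0.20 on the log2 scale with MEF and by 0.08 to 0.19 with PSC. The log2 fold change was −0.14 in both comparisons (95% intervals −0.44 to 0.16 each without a block, and −0.29 to 0.01 and −0.29 to 0.02 with it), and the adjusted p was 1 without the block and 0.705 and 0.537 with it (limma). Mural cells carry Pdgfrb, and the mean of all 6 mural markers was lower in both cocultures than in SCG (median log2 fold change −0.54 with MEF and −0.49 with PSC), although none passed. Over the 10 libraries Pearson's r of Pdgfrb was 0.09 with their sum, −0.81 with the neuron sum, 0.66 with the macrophage sum and 0.59 with the glial sum, and the part of these cell types was not tested. Genes with the pattern most like that of Pdgfrb over the 10 libraries were Inppl1 (r = 0.98), Plekhj1 and Trip10.

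Fap was far more even in the ganglia than the contractile genes. It was counted at 2079, 1957 and 1866 in SCG, at 1921, 2224 and 3104 in SCG+MEF and at 2079.7, 2015, 1977 and 2277.5 in SCG+PSC. A single library, SCG+MEF replicate 3, stood above the rest. Coculture gave a log2 fold change of 0.27 ± 0.16 (SE) with MEF (95% interval −0.08 to 0.62) and of 0.04 ± 0.16 with PSC (−0.31 to 0.39; adjusted p of 1 for both, limma). The latter interval leaves out a rise or fall of 0.5, the smallest size that the threshold accepts.

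In SCG, Pdpn (78.2 normalized counts per kilobase) and S100a4 (118.7) were among the lower markers, as were Pdgfra (97.2) and Cnn1 (69.9). Pdpn was counted at 328, 551 and 284 in SCG, at 268, 604 and 374 in SCG+MEF and at 269.6, 401 and 355 in SCG+PSC replicates 1 to 3 and 350.0 in replicate 4, and was highest in replicate 2 of each group. Its log2 fold change was 0.08 ± 0.32 (SE) with MEF and −0.14 ± 0.32 with PSC. S100a4 was counted at 72.9, 165.5 and 85.0 in SCG, at 70.0, 100.7 and 24.3 in SCG+MEF and at 66.2, 92.2, 72.6 and 95.8 in SCG+PSC. Its log2 fold change was −0.84 ± 0.49 with MEF (95% interval −1.92 to 0.23) and −0.40 ± 0.49 with PSC, and it was lower than SCG in all 3 same-numbered pairs of both comparisons. None passed (adjusted p of 1 for each, limma), and with the block S100a4 in SCG+MEF had an interval of −1.56 to −0.13 and an adjusted p of 0.563.

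Thy1 varied with the summed neuron markers. It was counted at 5894, 3977 and 5437 in SCG, at 4759, 4774 and 5344 in SCG+MEF and at 5720.1, 4311, 6574 and 5633 in SCG+PSC. Pearson's r over the 10 libraries was 0.83 with the summed neuron markers and −0.58 with the summed fibroblast markers, and the gene with the most similar pattern was Gpr85 (r = 0.98). The log2 fold change was 0.12 ± 0.18 (SE) for SCG+PSC against SCG and −0.02 ± 0.18 for SCG+MEF against SCG (adjusted p of 1 for both, limma).

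Across the ganglion comparisons no marker passed. By limma without a block 3 protein-coding genes of 15908 passed in SCG+PSC against SCG (0.0189%), 3 in SCG+MEF against SCG (0.0189%) and 0 in SCG+PSC against SCG+MEF (0.0%), where 488 genes and none of the markers had an unadjusted p below 0.05. With the replicate block 309 (1.94%), 38 (0.239%) and 181 (1.14%) passed, again with no marker among them. An unadjusted p below 0.05 with the block was found for 2108, 1289 and 2352 genes. Pdgfra and S100a4 were among the 1289 of SCG+MEF against SCG, and no marker was among the others. DESeq2 on recovered reads called 55, 21 and 18 genes and edgeR 3, 3 and 0, none of them a marker. Libraries of the groups compared overlapped for all 10 markers in each comparison, against 7.12%, 4.98% and 7.01% of genes whose groups did not. The median log2 fold change over the markers was 0.13, 0.16 and −0.01, beside 0.01, 0.03 and −0.02 over all protein-coding genes tested.

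Genes that work beside the markers were read from 8 lists of 81 genes in all. None passed the threshold in any of the 4 comparisons by limma without a block, and with the block a single call was made. In the counts of genes from here on, a higher mean is a higher mean of the log2 values, not of the normalized counts. Among 19 other contractile genes, 18 were tested in PSC+SCG against PSC and 14 had a higher mean (median log2 fold change 0.06, all genes 0.01), with Mylk, the myosin light chain kinase (0.36 ± 0.255, SE), and Filip1l (0.23 ± 0.18) the largest in size. In SCG+PSC against SCG, 11 of 19 had a higher mean, with Myh11, smooth muscle myosin heavy chain, at −0.57 ± 0.55 and Lmod1, leiomodin, at 0.50 ± 0.71.

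The PDGF ligands gave the call. Pdgfb, whose product binds both receptors, was counted from 266 to 1316 in SCG+MEF and from 754 to 1644 in SCG+PSC, ranges that overlap. It had a log2 fold change of 1.12 in SCG+PSC against SCG+MEF (SE 0.58 and adjusted p = 1 without a block, SE 0.21 and adjusted p = 0.0352 with it, limma). Against SCG the log2 fold change of Pdgfb was 0.72 in SCG+PSC and the adjusted p with the block was 0.158. In the stellate cells the ligands were Pdgfd, at 0.73 ± 0.31 (SE), and Pdgfb, at −0.60 ± 0.46, and neither passed (adjusted p of 0.9999, and of 0.229 and 0.62 with the block).

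The remaining lists made no call with or without the block. In PSC+SCG against PSC, 6 of 12 other CAF markers had a higher mean (median 0.01, with Hic1 at 0.58 ± 0.40, SE), 6 of 10 iCAF genes (median 0.28), 1 of 6 tested genes of the antigen-presenting CAF state (median −0.47), 7 of 10 ligands and response genes of TGF-beta (median 0.09, with Tgfbi at 0.37 ± 0.45), 3 of 6 tested partners of FAP, podoplanin and Thy1 (median 0.00, with Itgb3 at 0.30 ± 0.31) and 6 of 9 tested S100 genes (median 0.06). Has1, Ciita and S100b led their lists in size on very few reads, with means of 0.6 and 3.7 for Has1, 4.5 and 0.7 for Ciita and 3.6 and 4.7 for S100b in PSC and PSC+SCG. In SCG+PSC against SCG the same lists had 7 of 12, 4 of 10, 4 of 6, 6 of 10, 6 of 7 and 4 of 9 with a higher mean. Among the members with the largest log2 fold changes in size were Lrrc15 (0.86 ± 0.95) and Cxcl1 (−1.52 ± 0.62). Both were low too, with means in SCG and SCG+PSC of 19.7 and 26.9 for Lrrc15 and of 22.2 and 9.3 for Cxcl1. Dpp4, Slpi and S100a9 led their lists on a handful of reads, with means in SCG and SCG+PSC of 0.7 and 4.0 for Dpp4, 2.4 and 1.3 for Slpi and 0.7 and 1.6 for S100a9.

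In SCG+MEF against SCG, 8 of 19 contractile genes, 2 of 4 PDGF ligands, 4 of 12 other CAF markers, 4 of 10 iCAF genes, 2 of 6 antigen-presenting CAF genes, 2 of 10 TGF-beta genes, 3 of 7 partners and 6 of 9 S100 genes had a higher mean. Over all comparisons, the 48 cell type markers gave 7 calls with the block and 0 without it. In SCG+MEF against SCG, 5 of the 6 fibroblast genes had a higher mean (median log2 fold change 0.31), with Dpt at −1.37 and Col1a1 and Col1a2 at 0.22 and 0.18. The fibroblast genes Lum and Dcn had log2 fold changes of 1.29 and 0.74 there and passed with the block (adjusted p of 0.00168 and 0.0371, limma), but not without it (adjusted p of 1 for both). Lum, a matrix proteoglycan, ranged from 856 to 1477.5 in SCG and from 1914 to 4228 in SCG+MEF, and Dcn from 2544 to 3012 and from 3913.5 to 6170.0. Lum also passed with the block in SCG+PSC against SCG, at 0.65 (adjusted p = 0.0302), and in SCG+PSC against SCG+MEF, at −0.64 (adjusted p = 0.0443). The macrophage gene Mrc1 passed with the block in SCG+PSC against SCG, at 1.15 (adjusted p = 0.00999). The glial gene Fabp7 passed with it in SCG+MEF against SCG, at −0.50 (adjusted p = 0.0338), and in SCG+PSC against SCG+MEF, at 0.56 (adjusted p = 0.0219). All 6 endothelial markers had a higher mean in SCG+PSC than in SCG (median log2 fold change 1.16) and in SCG+MEF than in SCG (0.61), and none passed with or without the block. The part of these cell types in the values of the 10 markers was not tested.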

How the data were processed

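Bulk RNA-seq of 16 mouse libraries was used. The authors aligned stranded poly(A) reads to GRCm39 with STAR 2.7.10b, counted them over GENCODE M33 genes and scaled them with DESeq2 1.38.3 in R 4.2.2. The deposited values are a signal, namely read counts divided by the size factor of each library, computed apart for the stellate cell and ganglion tables. Tests were therefore kept within a table. Depth is known from whole reads recovered from the steps of the values (tolerance 0.1), which worked in 14 of 16 libraries.

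Protein-coding genes with a sum of at least 10 were tested by limma 3.58.1 (R 4.3.3, moderated with a trend) on log2(normalized count + 1), a scale that understates changes of low genes. P-values were adjusted by Benjamini-Hochberg over all genes tested, and the threshold was an adjusted p of at most 0.05 with a log2 fold change of at least 0.5. The ganglion model held replicates 1 to 3 of each group. Replicate 4 of SCG+PSC enters group values and correlations, and the tests only as an alternative. The study modelled a batch, which no label ties to a library, so the main model had none. Same-numbered libraries deviated together (r = 0.57 to 0.82 over 3 pairs and 0.38 to 0.76 over 9, against −0.70 to 0.34 and −0.57 to 0.09 for other pairs), so the replicate number, taken from the labels, was used as a block beside it. Alternatives changed the pseudocount (0.5 and 8), the filter, the normalization, the libraries and the tool (edgeR 4.0.16 and DESeq2 1.42.0 on recovered reads). The script was tested on simulated data.

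The markers and all gene lists were chosen with earlier results of these data known. Genes named from a list were those passing the threshold or, where none did, up to 2 with the largest log2 fold change in size, and genes named for likeness were the 3 with the highest Pearson's r. Values of some named genes are not reported here.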

Additional observations from a re-analysis of the deposited data

How the results depend on the processing

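No marker passed under any alternative except Pdgfra in PSC+SCG against PSC, where setting replicates 3 apart made it the 1 marker called. That fit sets aside the same-numbered pair in which Pdgfra was lower in coculture. Of 700 marker values under alternatives, 631 kept their sign and call and 68 took the opposite sign, 18 of them with no library left out.

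With the replicate block the count of genes called went from 0 to 76 in PSC+SCG against PSC, from 3 to 309 in SCG+PSC against SCG, from 3 to 38 in SCG+MEF against SCG and from 0 to 181 in SCG+PSC against SCG+MEF. With both libraries numbered 3 apart the count was 163 in PSC+SCG against PSC. In the ganglion model only SCG+PSC replicate 3 was put apart, and the counts were 298, 76 and 143. DESeq2 gave 55, 21 and 18 in the ganglion comparisons, and all 4 SCG+PSC libraries gave 8 against SCG. With a library left out the count was 1 to 2 in SCG+PSC against SCG and 0 to 3 in SCG+MEF against SCG. The block changed no call of a marker.

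In PSC+SCG against PSC, replicates 3 apart gave −0.19 for Acta2, −0.32 for Tagln, −0.21 for Myl9 and −0.17 for Cnn1, and quantile normalization gave −0.021 for Tagln. In SCG+PSC against SCG, edgeR and DESeq2 both gave −0.16 for Acta2 and −0.40 for Cnn1. In SCG+MEF against SCG they gave −0.061 and −0.062 for Acta2, and −0.05 and −0.06 for Tagln. In SCG+PSC against SCG+MEF, putting SCG+PSC replicate 3 apart gave 0.26 for Acta2 and 0.035 for Cnn1. There quantile normalization gave 0.0071 for Acta2 and −0.018 for Pdgfrb, and all 4 SCG+PSC libraries gave −0.056 for Pdgfrb. The cause of these turns was not tested.

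With each library left out in turn, the log2 fold changes that turned ran in PSC+SCG against PSC from −0.29 to 0.49 for Acta2, −0.43 to 0.37 for Tagln, −0.0012 to 0.20 for Pdgfrb, −0.049 to 0.20 for Pdpn, −0.21 to 0.16 for Thy1, −0.27 to 0.40 for Myl9 and −0.31 to 0.61 for Cnn1. They ran in SCG+PSC against SCG from −0.71 to 0.78 for Acta2, −0.50 to 0.86 for Tagln, −0.33 to 0.14 for Pdpn, −0.054 to 0.29 for Thy1, −0.35 to 1.09 for Myl9 and −0.90 to 0.76 for Cnn1. They ran in SCG+MEF against SCG from −0.68 to 0.81 for Acta2, −0.70 to 0.67 for Tagln, −0.23 to 0.36 for Pdpn, −0.19 to 0.091 for Thy1, −0.50 to 0.94 for Myl9 and −0.55 to 1.11 for Cnn1. They ran in SCG+PSC against SCG+MEF from −0.54 to 0.32 for Acta2, −0.33 to 0.67 for Tagln, −0.074 to 0.11 for Pdgfrb, −0.49 to 0.092 for Pdpn, −0.14 to 0.87 for S100a4 and −0.36 to 0.60 for Myl9.

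Tests on reads were not run for the stellate cell table, since reads were not recovered for PSC+SCG replicate 1. With 3 libraries a group, the 95% interval of Acta2 in SCG+PSC against SCG ran from −1.38 to 1.75 without the block and from −0.40 to 0.77 with it, so differences inside these bounds could not be told from 0.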
